A study of Chlamydomonas reinhardtii with 24 samples.

Results

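ACS3, ICL1, MAS1 and PCK1 are 4 nuclear genes of the green alga Chlamydomonas reinhardtii whose enzymes carry acetate carbon into central metabolism. They were chosen by name, with earlier results of these data known, from the 14621 genes of a raw count table. All 4 had enough counts to be tested among 13613 genes. In the table they are Cre07.g353450_4532.v6.1 (ACS3), Cre06.g282800_4532.v6.1 (ICL1), Cre03.g144807_4532.v6.1 (MAS1) and Cre02.g141400_4532.v6.1 (PCK1). The names came with the description of the gene group, and the RefSeq gene table used beside the counts holds these loci with no symbol to check them against.

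Acetate enters metabolism as acetyl-CoA, which acetyl-CoA synthetase makes from acetate and coenzyme A at the cost of ATP. The glyoxylate cycle then joins acetyl-CoA units into a dicarboxylic acid without the carbon dioxide losses of the citrate cycle, through isocitrate lyase and malate synthase. Phosphoenolpyruvate carboxykinase turns the oxaloacetate that follows into phosphoenolpyruvate, the starting point of gluconeogenesis. In Chlamydomonas this route lets cells grow on acetate in the dark, and it is known to be used alongside photosynthesis when acetate is supplied in the light.

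Polyadenylated RNA was sequenced from 24 libraries in 8 groups of 3. The groups were the mutants uvr8 (the gene of the UV-B photoreceptor), co (a CONSTANS-like regulator) and hy5 (a bZIP transcription factor, called CrBlz3 in the series text) and the wild type CC5325 (WT), each with and without UV-B. Each mutant is 1 strain with a library-style strain name, so a mutation and anything else particular to that strain cannot be told apart. Per the labels' protocols, all cells had been grown in an acetate medium under 20 µmol photons m-2 s-1, then washed, put in a minimal medium and left there for at least 1 h. UV-B of 0.2 mW cm-2 was given for 1 h through a 311 nm filter, while controls stood behind a 360 nm filter, and both had dim white light. Every group had therefore left acetate before it was sampled, and no group kept in acetate was part of the comparison. The design asks how transcripts respond to UV-B and how that response differs without UVR8, CO or HY5.

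Libraries held 19267716 to 27686700 counts, with TMM factors of 0.670 to 1.20, and their 50 most abundant genes took 23.3% to 33.9% of the counts. Levels are given as CPM, counts scaled to a common library size after TMM (edgeR's scaling by trimmed means), in the order of the replicate numbers 1, 2 and 3 in the sample titles, and the labels do not say what a number marks. The labels do not state that replicates were separate cultures, so p-values measure the spread between these libraries. CO stood at 6.84 to 9.99 CPM in the 6 co libraries, against 539 to 855 CPM in the 6 WT libraries. HY5 stood at 0.690 to 1.08 CPM in the hy5 libraries, against 6.39 to 184 CPM in WT. UVR8 stood at 21.5 to 30.8 CPM in uvr8 libraries, against 26.3 to 48.7 CPM in WT. Without UV-B it was lower in uvr8 than in WT, at -0.70 on the log2 scale (SE 0.18, edgeR adjusted p = 0.0205), and the groups did not overlap there. With UV-B they overlapped and UVR8 was not called. The UV-B marker LHL4 was higher with UV-B than without it at every replicate number of co, hy5 and WT, for example 479, 589 and 517 CPM with UV-B, against 3.98, 35.6 and 7.99 CPM without it, in WT. In uvr8 LHL4 stood at 2.29, 3.16 and 2.23 CPM with UV-B, against 2.77, 10.8 and 3.86 CPM without it. In RNA from whole cultures, a change in every cell and a change in the share of cells that express a gene cannot be told apart.

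ACS3, the acetyl-CoA synthetase, stands at the entry of the route, and its level differed widely between libraries of the same group. In uvr8 its level was 775, 1347 and 2122 CPM with UV-B, against 645, 201 and 304 CPM without it. In co it was 1188, 1339 and 1572 CPM with UV-B, against 1875, 464 and 576 CPM without it. Without UV-B the library numbered 1 was the highest of its group in both mutants, while with UV-B it was the lowest. In hy5 the values were 915, 1145 and 1462 CPM with UV-B, against 2275, 523 and 736 CPM without it. WT had 438, 652 and 798 CPM with UV-B, against 1060.3, 287 and 536 CPM without it. The groups with and without UV-B overlapped in co, hy5 and WT, and did not overlap in uvr8. The share of all genes without overlap in uvr8 was not counted.

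ICL1, isocitrate lyase, splits isocitrate into glyoxylate and succinate and is the enzyme that opens the glyoxylate bypass. It stood at 1116, 1676 and 3060.2 CPM in uvr8 with UV-B, against 1083, 173 and 385 CPM in uvr8 without it. In co it stood at 1757, 1798 and 2579.5 CPM with UV-B, against 2697, 459.8 and 780.1 CPM without it. The 3 libraries of a group without UV-B thus spanned 6.26-fold in uvr8 and 5.87-fold in co, a wider range than with UV-B, where it was 2.74-fold and 1.47-fold. For hy5 the levels were 1119, 1433 and 2363 CPM with UV-B, against 3437, 523 and 1024 CPM without it. In WT they were 1084, 756 and 925 CPM with UV-B, against 1558, 282 and 672 CPM without it. The WT libraries with UV-B all lay inside the range of those without it.

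MAS1, malate synthase, condenses glyoxylate with a further acetyl-CoA to give malate. Its level in uvr8 was 859, 1183 and 2075 CPM with UV-B, against 826, 149 and 299 CPM without it. In co it was 1436, 1280.2 and 1772 CPM with UV-B, against 1860.3, 371 and 628 CPM without it. The uvr8 groups did not overlap, by a narrow margin between the lowest library with UV-B and the highest without it, and the co groups did. Here too the share of all genes without overlap was not counted. Among hy5 libraries MAS1 stood at 1117, 1213 and 1868 CPM with UV-B, against 2428, 422 and 741 CPM without it. The WT libraries had 1203, 689 and 803 CPM with UV-B, against 1586, 273 and 644 CPM without it. As for ICL1, WT without UV-B ran both above and below WT with UV-B.

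PCK1, phosphoenolpyruvate carboxykinase, takes the carbon on towards sugars. In uvr8 it stood at 630.4, 871 and 1746 CPM with UV-B, against 651, 128 and 252 CPM without it. Its levels in co were 1037, 936 and 1723 CPM with UV-B, against 1497, 277 and 459 CPM without it. The groups overlapped in both mutants. In hy5 it stood at 931, 1059 and 1822 CPM with UV-B, against 2299.5, 401 and 762 CPM without it. WT libraries held 776, 466 and 797 CPM with UV-B, against 1022, 179.6 and 482 CPM without it. In all 4 genotypes and for all 4 genes, the lowest library without UV-B was the library numbered 2 and the highest was the library numbered 1.

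**Figure D1:**
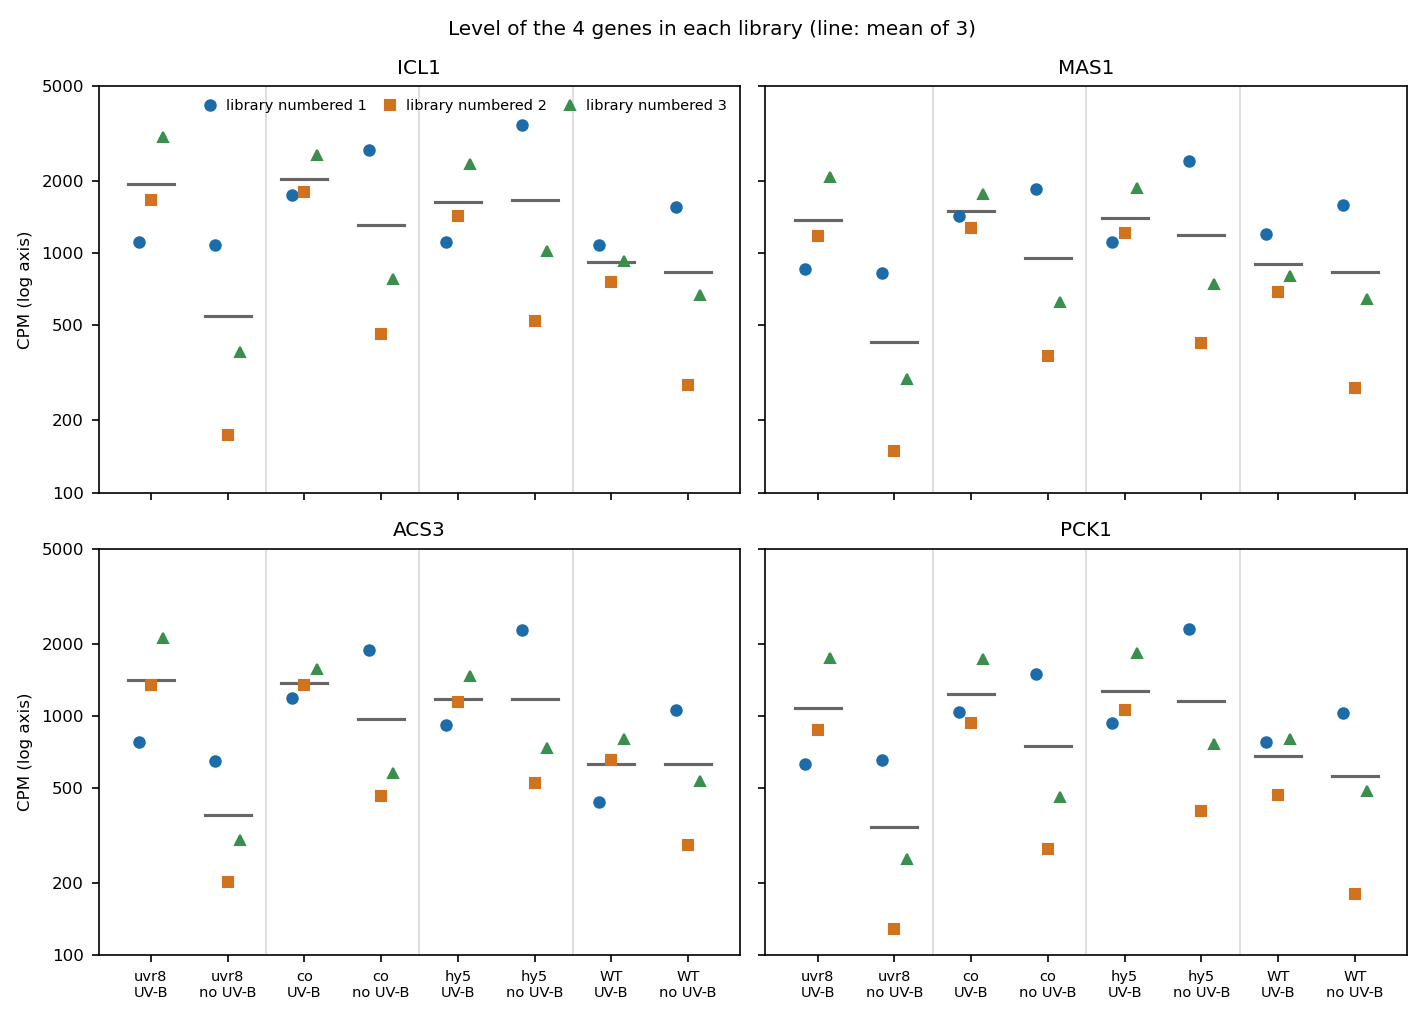
CPM (log axis) of ICL1, MAS1, ACS3 and PCK1 in each of the 24 libraries, by genotype and light, with the mean of 3 as a line and the replicate number as colour and shape. Without UV-B the libraries numbered 1 lie highest and those numbered 2 lowest for all 4 genes, while with UV-B the libraries numbered 3 are highest in uvr8, co and hy5.

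The extremes were shared. All 4 genes were highest in hy5 without UV-B, library 1, and lowest in uvr8 without UV-B, library 2, a distance of 11.3-fold for ACS3, 19.8-fold for ICL1, 16.2-fold for MAS1 and 18.0-fold for PCK1. The SD of log2 CPM within groups was 0.78 for ACS3, 0.99 for ICL1, 0.94 for MAS1 and 0.96 for PCK1, against a median of 0.33 over all genes tested. Together the 4 genes took 0.0651% to 1.08% of the counts of a library. Counts of single genes were 3196 or more in every library.

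Group means with UV-B and without it were compared in each genotype with edgeR's quasi-likelihood F test on 1 mean per group, with the p-values of all genes tested adjusted together (Benjamini-Hochberg) and an adjusted p under 0.05 taken as a call. None of the 4 genes was called in any genotype. The share of all genes tested that was called was 0% in uvr8, 1.72% in co, 9.59% in hy5 and 16.3% in WT. The widest difference was in uvr8, where ICL1 averaged 1951 ± 1001 CPM with UV-B and 547 ± 476 CPM without it, and ACS3 averaged 1415 ± 676 CPM with UV-B and 383 ± 232 CPM without it (SD, n = 3 each). On the log2 scale these differences were 1.83 (SE 0.76, edgeR adjusted p = 0.540) for ICL1 and 1.88 (SE 0.61, edgeR adjusted p = 0.483) for ACS3. MAS1 differed by 1.69 and PCK1 by 1.65. All 4 had an unadjusted p under 0.05 there, as did 1209 of all genes, of which 0 passed adjustment with edgeR and 14 passed with DESeq2. The difference for these genes in uvr8 stayed positive with any 1 library left out, between 1.12 and 2.81 over the 4 genes.

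In co the log2 difference was 0.49 to 0.73, in hy5 it was -0.02 to 0.23 and in WT 0.00 to 0.28, each with an SE of 0.59 or more. In WT, leaving out library 1 without UV-B moved ICL1 to 0.93, MAS1 to 0.95, ACS3 to 0.59 and PCK1 to 1.01, and leaving out library 2 without UV-B moved them to -0.28, -0.31, -0.34 and -0.15. In hy5 the same libraries without UV-B turned the sign likewise, with ICL1 at 1.08 without library 1 and -0.45 without library 2. In co the sign was kept, with ICL1 at 1.72 without library 1 of the group without UV-B and at 0.23 without library 2 of that group. The difference between the UV-B effect in a mutant and that in WT was called for none of the 4 genes, against 6.29% of all genes for uvr8, 1.75% for co and 0.0294% for hy5. For uvr8 that difference of effects was 1.88 (SE 0.84) for ACS3, with edgeR adjusted p = 0.229.

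Setting libraries of the same number side by side gave a pattern that the group means do not hold. The ratio of CPM with UV-B to CPM without it was below 1 in 13 of 16 cases for number 1 (4 genes in 4 genotypes), with a range of 0.326 to 1.20 and a median of 0.694. For number 2 it was above 1 in 16 of 16 cases, at 2.19 to 9.68 with a median of 2.88. For number 3 it was again above 1 in 16 of 16, at 1.25 to 7.95 with a median of 2.63. The 3 ratios above 1 at number 1 were those of ACS3, ICL1 and MAS1 in uvr8, at 1.20, 1.03 and 1.04, beside 0.968 for PCK1. The 4 genes ran closely together across libraries, so the 16 cases of a number rest on 4 pairs of libraries. They are not separate observations, and the share of all genes with such ratios was not counted. Same-numbered libraries at both lights were not shown to be pairs in uvr8, co or hy5.

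ICL1 shows the range. Its ratio at number 1 was 1.03 in uvr8, 0.651 in co, 0.326 in hy5 and 0.695 in WT. At number 2 it was 9.68 in uvr8, 3.91 in co, 2.74 in hy5 and 2.68 in WT. At number 3 it was 7.95 in uvr8, 3.31 in co, 2.31 in hy5 and 1.38 in WT. At each number uvr8 had the highest ratio of the 4 genotypes for this gene, and WT had the lowest at numbers 2 and 3.

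**Figure D2:**
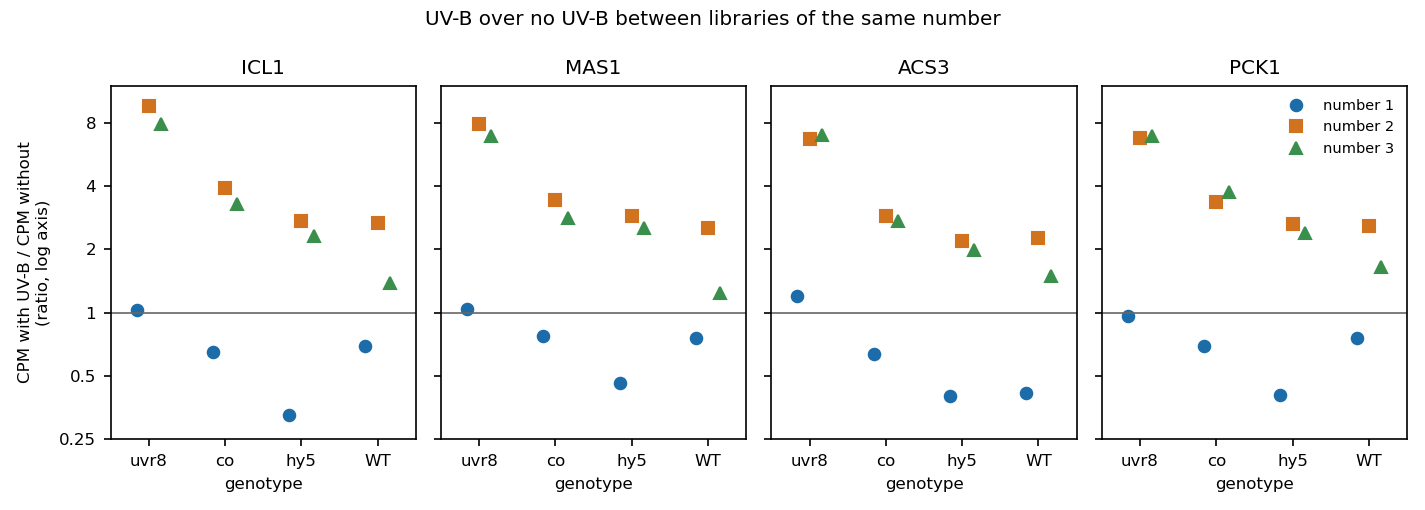
Ratio of CPM with UV-B to CPM without it (log axis, line at 1) between libraries of the same replicate number, for each gene and genotype. Numbers 2 and 3 lie above 1 in 32 of 32 cases and number 1 below it in 13 of 16, and the uvr8 ratios at numbers 2 and 3 are 6.70 to 9.68.

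The replicate numbers themselves were compared in a fit with group and number as terms, over all 24 libraries. Libraries numbered 2 were lower than those numbered 1 for 4 of 4 genes, against 23.6% of all genes called lower. The log2 differences were -1.42 (SE 0.38, edgeR adjusted p = 0.00473) for ICL1, -1.42 for MAS1, -0.88 (SE 0.34, edgeR adjusted p = 0.0383) for ACS3 and -1.42 for PCK1. Number 3 against 1 gave 0 calls among the 4 genes, against 23.6% of all genes called in either direction. With edgeR 1 of the 4, MAS1, had an unadjusted p under 0.05 there, and DESeq2 also called 0 of them. Number 3 against 2 gave a call for PCK1, which was 0.92 higher (SE 0.33, edgeR adjusted p = 0.0497), against 11.1% of all genes called higher.

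Split by light, the numbers ran differently. Without UV-B, libraries numbered 2 were lower than those numbered 1 for 4 of 4 genes, at -2.60 on the log2 scale for ICL1, -2.47 for MAS1, -1.94 for ACS3 and -2.46 for PCK1, against 25.8% of all genes called lower. Number 3 was also lower than number 1 for 4 of 4, at -1.55 for ICL1, -1.50 for MAS1, -1.34 for ACS3 and -1.42 for PCK1, against 10.5% of all genes. Number 3 was higher than number 2 for 4 of 4, at 1.05 for ICL1, 0.97 for MAS1, 0.60 for ACS3 and 1.03 for PCK1, against 9.23% of all genes. The SE of these differences was 0.09 to 0.12, and the largest edgeR adjusted p among them was 0.00873, for ACS3 between numbers 3 and 2.

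With UV-B the order was another. ACS3 was higher in number 2 than in number 1, by 0.45 (SE 0.14, edgeR adjusted p = 0.0226), and the other 3 genes were not called, at 0.08 for ICL1, -0.14 for MAS1 and -0.08 for PCK1, against 24.3% of all genes called higher. Number 3 was higher than number 1 for ICL1 by 0.70, for ACS3 by 0.85 and for PCK1 by 0.78, against 21.4% of all genes, while MAS1 stood at 0.42 (edgeR adjusted p = 0.166). Between numbers 3 and 2, PCK1 was called higher, by 0.87 (edgeR adjusted p = 0.0117), against 6.57% of all genes. Many genes besides these 4 differ between numbers, as the shares show, and what a number stands for in the experiment was not tested.

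A further fit let the number effect differ between lights (group, replicate number and number by light). It was chosen after the values per library had been seen, and its p-values do not account for that choice. In it, UV-B was set against no UV-B within each number, over the 4 genotypes. Whether a number links libraries across lights is not in the labels. Over all genes, same-numbered deviations from the group means with and without UV-B had r of 0.56, 0.52 and 0.17 for numbers 1, 2 and 3 in WT, but of 0.09, 0.66 and -0.16 in uvr8, 0.10, 0.57 and -0.25 in co, and 0.06, 0.66 and -0.34 in hy5. In libraries numbered 1 the level with UV-B was lower for 3 of 4 genes, at -0.64 on the log2 scale for ICL1, -0.74 for ACS3 and -0.54 for PCK1, with MAS1 at -0.41 (edgeR adjusted p = 0.109), against 14.4% of all genes called lower. Without the co libraries 1 of 4 was called, and without the hy5 libraries 0 of 4, with ICL1 then at -0.31 (edgeR adjusted p = 0.401). Without the WT libraries and without the uvr8 libraries 4 of 4 were called, with MAS1 at -0.45 (edgeR adjusted p = 0.0263) and -0.60 (edgeR adjusted p = 0.0289). In number 2 it was higher for 4 of 4, by 2.03 for ICL1, 1.91 for MAS1, 1.65 for ACS3 and 1.83 for PCK1, against 18.9% of all genes. In number 3 it was again higher for 4 of 4, by 1.62, 1.51, 1.46 and 1.68 for the same genes in that order, against 26.4% of all genes. The calls in numbers 2 and 3 were 4 of 4 with the libraries of any 1 genotype left out.

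The difference between these effects was tested in the same fit. The UV-B effect was higher in number 2 than in number 1 for 4 of 4 genes, by 2.67 (SE 0.25, edgeR adjusted p = 9.3e-06) for ICL1 and by 2.32 to 2.38 for the other genes, against 12.7% of all genes called higher. It was also higher in number 3 than in number 1 for 4 of 4, by 1.92 to 2.26, against 18.7% of all genes. Between numbers 3 and 2 it was called for 0 of 4, at -0.41 for ICL1, -0.40 for MAS1, -0.19 for ACS3 and -0.15 for PCK1, against 0.00735% of all genes called in either direction. None of the 4 had an unadjusted p under 0.05 there, and DESeq2 called 0 of the 4.

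The UV-B effect in each genotype was also read from that fit, averaged over numbers. It takes the shifts by number and light out of the error, so that the SE for ICL1 in uvr8 was 0.21, against 0.76 with 1 mean per group. Its p-values for UV-B in a genotype therefore do not measure how the UV-B effect varied between numbers. Over the 4 genotypes that effect was -0.64, 2.03 and 1.62 for ICL1 in numbers 1, 2 and 3. The calls for UV-B below hold only with these shifts set aside. With 1 mean per group, and with group and replicate number as terms, 0 of 4 genes were called for UV-B in each of the genotypes. With number by light, 4 of 4 genes in uvr8 were called higher with UV-B, at 2.14 for ICL1, 1.99 for MAS1, 1.95 for ACS3 and 1.87 for PCK1, against 5.99% of all genes. In co 4 of 4 were called higher, at 1.02 for ICL1, 0.97 for MAS1, 0.78 for ACS3 and 1.04 for PCK1, against 6.66% of all genes. In hy5 MAS1 was called, at 0.58 (edgeR adjusted p = 0.0495), with ICL1 at 0.35, ACS3 at 0.27 and PCK1 at 0.45, against 14.4% of all genes called higher. In WT PCK1 was called, at 0.60 (edgeR adjusted p = 0.0192), with ICL1 at 0.50, MAS1 at 0.47 and ACS3 at 0.15, against 19.7% of all genes. Such an average covers libraries numbered 1, where 13 of 16 ratios were below 1, and libraries numbered 2 and 3, where all 32 were above it.

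The UV-B effect was higher in uvr8 than in WT for 4 of 4 genes in this fit, by 1.64 (SE 0.29) for ICL1, 1.51 (SE 0.30) for MAS1, 1.80 (SE 0.23) for ACS3 and 1.27 (SE 0.27) for PCK1, with edgeR adjusted p of 0.00228 or lower, against 10.4% of all genes called higher. For co the difference from WT was called for 0 of 4 genes, at 0.44 to 0.63 with an SE of 0.22 to 0.30, against 9.05% of all genes in either direction. Of these, ACS3 had an unadjusted p under 0.05. For hy5 it was called for 0 of 4, at -0.14 to 0.11, against 0.22% of all genes, and none of the 4 had an unadjusted p under 0.05. With 1 mean per group, none of the 12 differences of effects was called.

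**Figure D3:**
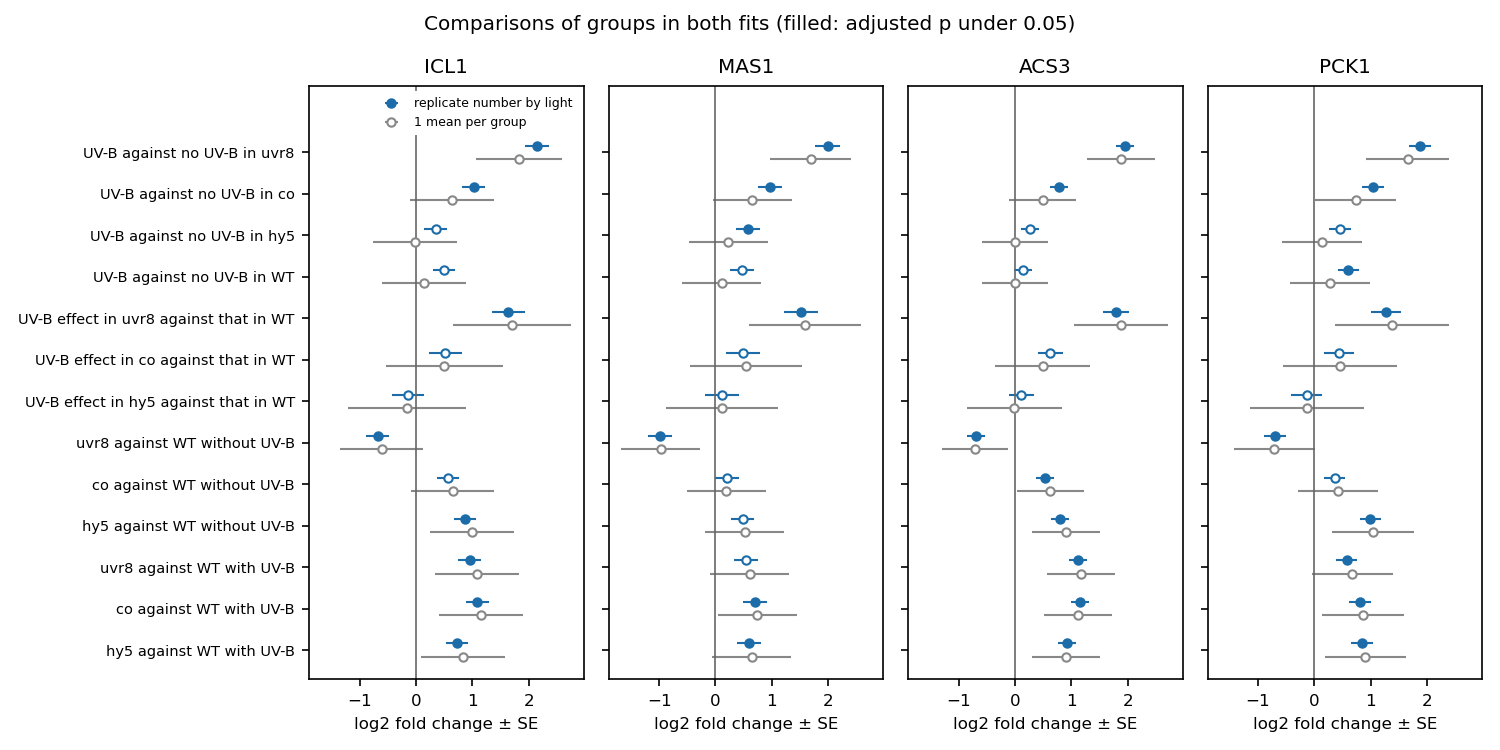
Log2 fold change with its SE for each gene in 13 comparisons of groups, from the fit with 1 mean per group (grey) and from the fit with replicate number by light (blue), filled where the edgeR adjusted p was under 0.05. The grey points are all open, and in the blue fit uvr8 has the largest UV-B effect, 1.87 to 2.14.

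Mutants were set against WT at the same light. With 1 mean per group none of the 4 genes was called in these 6 comparisons. Without UV-B the share of all genes called was 5.33% for uvr8, 3.27% for co and 4.26% for hy5, and with UV-B it was 22.2% for uvr8, 19.1% for co and 6.77% for hy5. With UV-B and 1 mean per group, ICL1 averaged 2045 ± 464 CPM in co and 922 ± 164 CPM in WT (SD, n = 3 each), a log2 difference of 1.15 (SE 0.74, edgeR adjusted p = 0.319). Without UV-B several differences changed sign with library 1 of only 1 group left out, so that the groups compared then held unlike numbers. For ICL1 the difference was -0.61 in uvr8 and 0.20 without WT library 1. It was 0.65 in co and -0.43 without co library 1, and 0.99 in hy5 and -0.12 without hy5 library 1. Between same-numbered libraries the sides were kept for ICL1, though such libraries were not shown to be pairs for co against WT without UV-B. At numbers 2 and 3 the ICL1 ratio to WT without UV-B was 0.614 and 0.573 for uvr8, 1.63 and 1.16 for co, and 1.85 and 1.52 for hy5. Fitted on the co and WT libraries with UV-B alone, ICL1 at 1.20 (edgeR adjusted p = 0.0222) and ACS3 at 1.17 (edgeR adjusted p = 0.0287) were called, against 4.65% of all genes called higher in that fit.

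At the same number and light, the ratio of uvr8 to WT without UV-B was below 1 in 12 of 12 cases, at 0.463 to 0.712. In the same light hy5 over WT was above 1 in 12 of 12, at 1.15 to 2.25, and co over WT in 10 of 12, at 0.951 to 1.77. For ICL1 without UV-B the ratios to WT were 0.695, 0.614 and 0.573 for uvr8, and 2.21, 1.85 and 1.52 for hy5. With UV-B, co over WT was above 1 in 12 of 12 cases, at 1.19 to 2.79, hy5 over WT in 11 of 12, at 0.929 to 2.55, and uvr8 over WT in 10 of 12, at 0.714 to 3.31. The ratios of all 3 mutants at the same light share the WT libraries. The genes ran closely together across libraries, so the 12 cases of a mutant at a given light rest on 3 pairs of libraries. They are not separate observations, and the share of all genes with such ratios was not counted. For co against WT without UV-B, same-numbered libraries were not shown to be pairs (r of 0.57, 0.61 and 0.06).

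In the fit with number by light, chosen after these values were seen, uvr8 without UV-B was lower than WT for 4 of 4 genes, at -0.68 for ICL1, -0.98 for MAS1, -0.69 for ACS3 and -0.70 for PCK1, against 11.6% of all genes called lower. Without UV-B hy5 was higher for ICL1 at 0.87, ACS3 at 0.80 and PCK1 at 0.99, with MAS1 at 0.48 (edgeR adjusted p = 0.108), against 13.4% of all genes called higher. For co without UV-B, ACS3 was called higher, at 0.54 (edgeR adjusted p = 0.0218), with ICL1 at 0.57, MAS1 at 0.21 and PCK1 at 0.36, against 11.3% of all genes. In this fit and without UV-B, uvr8 was thus called below WT for 4 of 4 genes and hy5 above it for 3 of 4. Both were set against the same WT libraries. With 1 mean per group none of these differences was called. That of ICL1 changed sign in both mutants with library 1 of only 1 of the groups left out.

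With UV-B all calls in that fit were higher in the mutant. In uvr8 they were ICL1 at 0.95, ACS3 at 1.11 and PCK1 at 0.57, with MAS1 at 0.54 (edgeR adjusted p = 0.0523), against 22.4% of all genes. In co 4 of 4 were called, at 1.09 for ICL1, 0.70 for MAS1, 1.16 for ACS3 and 0.81 for PCK1, against 18.1% of all genes. In hy5 4 of 4 were called, at 0.73 for ICL1, 0.59 for MAS1, 0.92 for ACS3 and 0.84 for PCK1, against 14.2% of all genes. These 3 comparisons share the WT libraries with UV-B, including library 1, in which ACS3 was at 438 CPM, the lowest ACS3 level of the 12 libraries with UV-B.

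Beside their common movement the 4 genes differed in their ratios inside a library. No gene lengths were used, so a ratio of counts says nothing of which transcript was more abundant, and the ratios are compared between libraries only, as a description. ICL1 over MAS1 was 1.16 to 1.48 in the 6 uvr8 libraries, with a median of 1.31, and 1.22 to 1.46 in the 6 co libraries, with a median of 1.32. In hy5 it was 1.00 to 1.42 with a median of 1.25, and in WT 0.901 to 1.15 with a median of 1.04. The uvr8 and co libraries did not overlap with those of WT, at either light, for uvr8 by a narrow margin (1.159 against 1.152). The hy5 libraries overlapped with WT through library 1 with UV-B. Without UV-B they did not overlap, at 1.24 to 1.42 in hy5 and 0.983 to 1.04 in WT. ICL1 over MAS1 is 1 of 6 ratios between the 4 genes. How many pairs of other genes separate these strains as well was not counted.

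Over both lights together, ratios to PCK1 did not separate the strains in this way. MAS1 over PCK1 was 1.17 to 1.36 in uvr8, 1.03 to 1.38 in co, 0.972 to 1.20 in hy5 and 1.01 to 1.55 in WT. ICL1 over PCK1 was 1.35 to 1.92 in uvr8, 1.50 to 1.92 in co, 1.20 to 1.49 in hy5 and 1.16 to 1.62 in WT. These ranges over both lights overlapped with WT in all 3 mutants, but not all did within 1 light. Without UV-B, MAS1 over PCK1 was 1.17 to 1.27 in uvr8 and 0.972 to 1.06 in hy5, against 1.34 to 1.55 in WT. ICL1 over PCK1 without UV-B was 1.66 to 1.80 in co, against 1.39 to 1.57 in WT. With UV-B it was 1.75 to 1.92 in uvr8, against 1.16 to 1.62 in WT. For these ratios, the mutants not named for a light overlapped with WT there. ICL1 over ACS3 was 2.48 in WT with UV-B, library 1, against 0.861 to 1.68 in the other 23 libraries, which makes that library stand apart for ACS3.

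**Figure D4:**
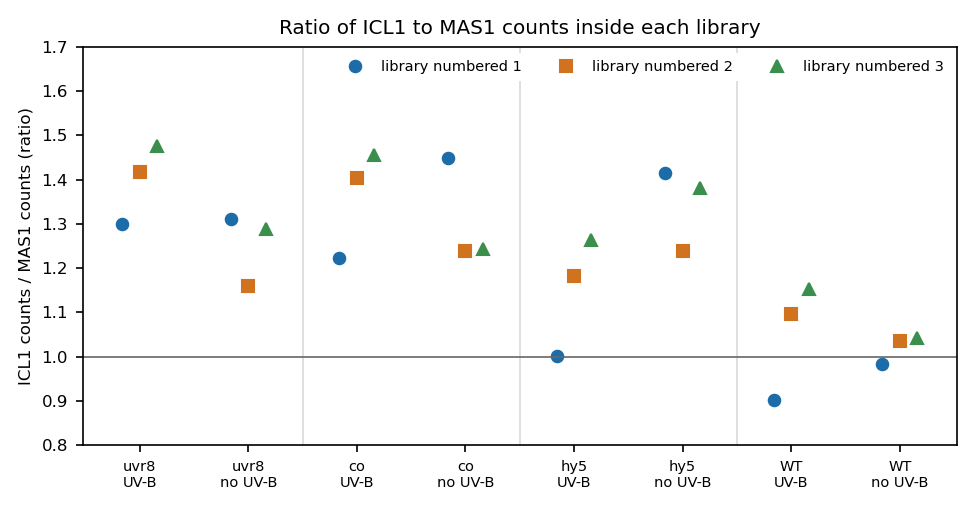
Ratio of ICL1 counts to MAS1 counts inside each of the 24 libraries, by genotype and light, with the replicate number as colour and shape and a line at 1. The WT libraries lie between 0.901 and 1.15, below all libraries of uvr8 (1.16 or more) and co (1.22 or more).

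Across all 24 libraries the levels of the 4 genes ran closely together, with Pearson's r of log2 CPM of 0.934 to 0.985 in the 6 pairs, and of 0.922 to 0.993 for deviations from the group means. The points share libraries, depth and the shifts by number described above, so r is a description here. For ICL1 the 3 closest of all genes tested were MAS1 (r = 0.985), PCK1 (r = 0.983) and Cre09.g387726 (r = 0.979). For MAS1 they were Cre14.g626000 (r = 0.988), ICL1 and PCK1 (r = 0.981), and for PCK1 they were ICL1, MAS1 and Cre14.g626000 (r = 0.981). ACS3 had other neighbours, Cre15.g641200 (r = 0.985) and Cre03.g149100 (r = 0.968), before ICL1 (r = 0.967). In deviations from the group means, ICL1 and MAS1 were each other's closest gene (r = 0.993). Over 0.8 with all 4 genes were 89 of all genes tested, or 0.654%, a count that includes the 4 genes themselves.

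For the surroundings of the route, 35 further loci in 4 lists were written down, of which 33 are in the table: acetate activation (6 loci), membrane proteins of the GFY family of putative acetate transporters (3), the citrate and glyoxylate cycle (18), and phosphoenolpyruvate and gluconeogenesis (6). They were taken from general knowledge of the identifiers, and neither the table nor the RefSeq genes name them, so they are described by list and identifier. Loci with r over 0.8 to all 4 genes were 1 of 6 in acetate activation, 1 of 3 among the GFY proteins, 3 of 18 in the cycle list and 0 of 6 in the last list. The lowest r to the 4 genes were those of Cre12.g533550 (-0.72 to -0.67), Cre12.g513200 (-0.68 to -0.54) and Cre12.g510650 (-0.68 to -0.52) of the last list, and Cre03.g149250 of the cycle list (-0.66 to -0.61). Cre03.g149250 was 2.20 higher on the log2 scale (SE 0.51, edgeR adjusted p = 0.0117) in uvr8 than in WT without UV-B, at 178 ± 111 CPM in uvr8 and 38.6 ± 16.3 CPM in WT (SD, n = 3 each).

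With 1 mean per group, UV-B gave 0 calls of the 33 loci in uvr8 and co, 1 higher in hy5 and 2 lower in WT, beside 0%, 1.72%, 9.59% and 16.3% of all genes called in uvr8, co, hy5 and WT. In uvr8, 10 of the 33 had an unadjusted p under 0.05, and in co 3 had. Against WT without UV-B, 2 were higher in uvr8, 1 was lower in co and 0 were called in hy5, where 4 had an unadjusted p under 0.05, beside 5.33%, 3.27% and 4.26% of all genes for these mutants. Against WT with UV-B, 6 were higher in uvr8, 2 were higher and 1 lower in co, and 0 were called in hy5, where 4 had an unadjusted p under 0.05, beside 22.2%, 19.1% and 6.77% of all genes. The 6 of 33 in uvr8 thus lay near the share of all genes. Cre02.g143250 of the cycle list was among these calls, lower with UV-B in WT at -0.59 (SE 0.16, edgeR adjusted p = 0.0141) and higher in uvr8 than in WT with UV-B by 1.04 (SE 0.16, edgeR adjusted p = 7.1e-05).

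By replicate number the lists went partly with the 4 genes and partly the other way. In the fit with number by light, UV-B in libraries numbered 1 gave 1 higher and 3 lower of 6 for acetate activation, 0 higher and 1 lower of 3 for the GFY proteins, 0 higher and 9 lower of 18 for the cycle list, and no call of 6 for the last list. Over all genes tested 1695 were higher and 1963 lower there. In number 2 the counts were 3 higher and 0 lower for acetate activation, 3 and 0 for the GFY proteins, 7 and 2 for the cycle list, and 0 higher and 4 lower for phosphoenolpyruvate and gluconeogenesis, beside 2570 higher and 2157 lower of all genes. In number 3 they were 5 and 0, 3 and 0, 12 and 1, and 0 higher and 6 lower in the same order, beside 3590 higher and 2908 lower of all genes. The median log2 difference in number 3 was 0.84 for acetate activation, 0.96 for the GFY proteins, 0.49 for the cycle list and -0.81 for phosphoenolpyruvate and gluconeogenesis, against 0.05 over all genes.

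Single loci show the sizes. Cre03.g149100 of the cycle list moved with the 4 genes, at -0.50 in number 1, 1.56 in number 2 and 1.53 in number 3. The GFY locus Cre17.g702950 stood at 1.14 in number 2 and 0.96 in number 3. Cre12.g533550 of the last list went the other way, at -0.46 in number 2 and -0.87 in number 3 (all log2 differences of UV-B against no UV-B). PCK1 thus had the sign of ICL1 and MAS1. The calls of the phosphoenolpyruvate and gluconeogenesis list had the opposite sign in numbers 2 and 3. What the loci of that list encode could not be checked, so these signs do not speak for a pathway.

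**Figure D5:**
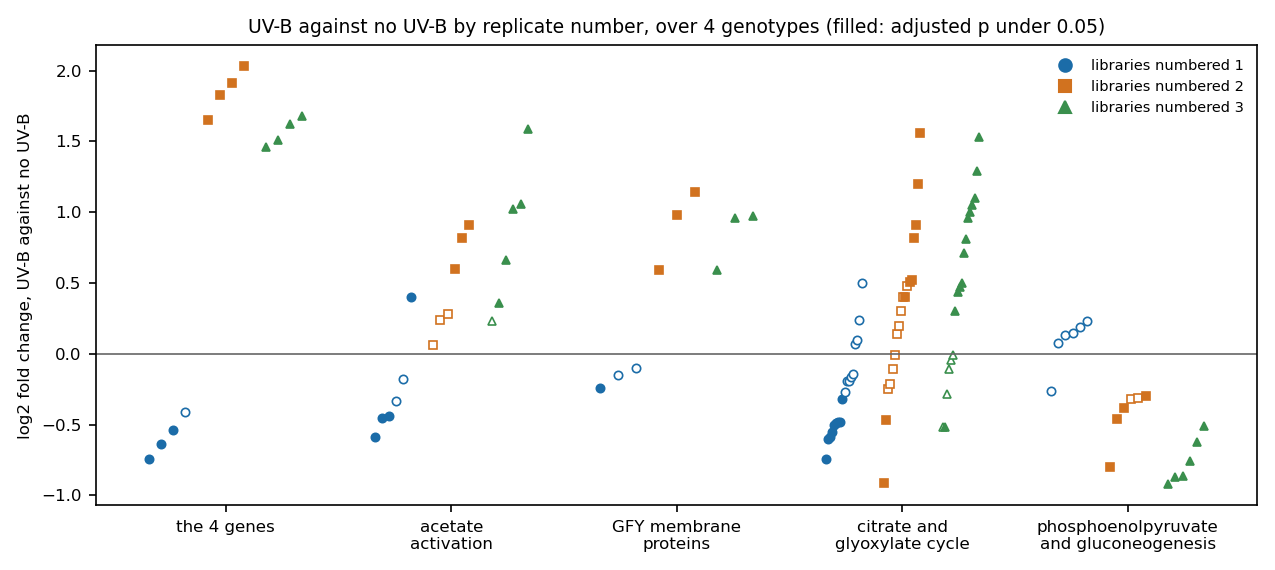
Log2 fold change of UV-B against no UV-B within each replicate number, over 4 genotypes, for the 4 genes and for each locus of the 4 lists, filled where the edgeR adjusted p was under 0.05. The 4 genes are at 1.46 to 2.03 in numbers 2 and 3 and below 0 in number 1, and the 6 loci of the phosphoenolpyruvate and gluconeogenesis list are below 0 in numbers 2 and 3.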

How the data were processed

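The values are whole read counts as the authors deposited them, in 1 table of 14621 genes and 24 libraries, with no normalization. Per the submitters' processing notes, the tools were STAR 2.7.10b, HTSeq 0.11.3, edgeR 3.42.4 and bcl2fastq 2.20.0, and what each did is not recorded there. The genome build beyond the version suffix of the identifiers, the strand setting and how reads matching several places were counted is not given in the sources used here, so reads of an overlapping antisense gene or a near-identical copy cannot be told apart. Groups and replicate numbers were taken from the sample titles. The 4 genes, the lists and the comparisons were chosen with earlier results of these data known.

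Of 14621 genes, 13613 passed edgeR's filterByExpr (minimum count 10, minimum total 15, by group). Counts were scaled by TMM and tested with edgeR 4.0.16 (quasi-likelihood F test, limma 3.58.1, R 4.3.3) on 1 mean per group over all 24 libraries in 13 comparisons of groups, and on group plus replicate number in 3 comparisons of numbers. All genes tested shared 1 Benjamini-Hochberg adjustment per comparison, and an adjusted p under 0.05 is a call. The SE is the log2 fold change divided by the square root of F. The comparisons of numbers split by light were fitted on the 12 libraries of each light. Correlations use log2 CPM with a prior count of 2. The genes named were the 4, the mutated genes and LHL4, loci of the lists with the smallest adjusted p, and for each of the 4 the 3 genes with the highest correlation. Of the loci this rule names, a few per comparison are printed, and the loci given as examples of the calls by replicate number, and those given for the lowest correlations, were chosen after their values were seen.

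Library totals limit the precision to counting error plus the spread between 3 libraries. Libraries of 1 group differed by far more than counting error, with a chi-square per degree of freedom of 21.3 to 131 in 24 pairs, and none was counted as a repeat. Replicate numbers were checked for pairing by the correlation of same-numbered deviations from the group means, counted as pairs where all 3 numbers gave over 0.1. That held for UV-B in WT (0.56, 0.52 and 0.17), for 2 mutants, uvr8 and hy5, against WT without UV-B, and for all 3 mutants against WT with UV-B, so that the pairing there comes from the data. It did not hold for UV-B in uvr8, co and hy5, nor for co against WT without UV-B. The alternatives were DESeq2 1.42.0 and its size factors, no filter, fits on the libraries compared, the replicate block, number by light, and leaving out each library. On simulated counts, with changes put into WT with UV-B only, the edgeR fits called part of these changes, with few false calls. DESeq2 made many more false calls there. The simulated counts held no shift by replicate number or by number and light. How often any of these fits makes false calls on counts with such shifts was therefore not tested. Of the RefSeq genes, 0 carry a symbol, and 13245 locus numbers of the table occur among them.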

Additional observations from a re-analysis of the deposited data

Results flagged for a closer look

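The UV-B effect of each of the 4 genes differed between replicate numbers in a test of the difference itself (edgeR's quasi-likelihood test in the fit with number by light, with Benjamini-Hochberg adjustment over all genes, chosen after the values per library were seen). Between numbers 2 and 1 the log2 difference of the effect was 2.67 for ICL1 (adjusted p = 9.3e-06), 2.32 for MAS1 (adjusted p = 3.4e-05), 2.38 for ACS3 (adjusted p = 2.1e-06) and 2.37 for PCK1 (adjusted p = 1.3e-05). Between numbers 3 and 1 it was 2.26 for ICL1 (adjusted p = 1.6e-05), 1.92 for MAS1 (adjusted p = 6.9e-05), 2.19 for ACS3 (adjusted p = 4.7e-06) and 2.21 for PCK1 (adjusted p = 1.2e-05). The ratio of UV-B to no UV-B was above 1 in 16 of 16 cases in numbers 2 and 3 each, and in 3 of 16 in number 1. These cases are the 4 genes, which ran closely together, in the 4 genotypes, and are not separate observations. The difference between numbers was called for 4 of 4 genes with the libraries of any 1 genotype left out. The test restates the pattern per library that prompted the fit, so it is no independent support for it. It also sets same-numbered libraries of both lights against each other, and the check of same-numbered deviations did not show them as pairs in uvr8 (r of 0.09, 0.66 and -0.16), co (0.10, 0.57 and -0.25) or hy5 (0.06, 0.66 and -0.34). What the numbers stand for was not tested.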

How the results depend on the processing

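With 1 mean per group the 4 genes were called in 0 of 13 comparisons of groups, and this held with DESeq2, with DESeq2 size factors, with no filter, with the replicate block and with any 1 library left out. The exceptions were the fit on the libraries compared, which called 2 for co against WT with UV-B, and the fit with number by light. That fit, chosen after seeing the data, called 1 for UV-B against no UV-B in WT, 4 in uvr8, 4 in co and 1 in hy5. It called 4 for uvr8 against WT without UV-B, 1 for co and 3 for hy5, and with UV-B 3 for uvr8, 4 for co and 4 for hy5. It called 4 for the UV-B effect in uvr8 against that in WT. The cause of these changes was not tested. In the fit with number by light, the p-values for UV-B in a genotype do not measure how the UV-B effect varied between numbers.

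The count of all genes called moved as follows, with the cause not tested. DESeq2 called 14 for UV-B against no UV-B in uvr8, 360 in co, 1216 for uvr8 against WT without UV-B, 803 for co, 1055 for hy5, 1452 for hy5 against WT with UV-B, 411 for the UV-B effect in co against that in WT, 10 for hy5, and 116 for the UV-B effect in libraries numbered 3 against 2. With the replicate block, which changed no call of the 4 genes, the counts were 3872 for UV-B in WT, 468 in co, 2617 in hy5, 2173, 1812 and 2128 for uvr8, co and hy5 against WT without UV-B, 4702, 4237 and 2445 for the same mutants with UV-B, and 2003, 801 and 9 for their UV-B effects against that in WT. With number by light they were 5177 for UV-B in WT, 1501 in uvr8, 1235 in co, 3737 in hy5, 3408, 3142 and 3454 for uvr8, co and hy5 against WT without UV-B, 6040, 5513 and 3866 with UV-B, and 3150, 1232 and 30 for the UV-B effects against that in WT. On only the libraries compared they were 911 for UV-B in WT, 79 in co, 849 in hy5, 352, 242 and 266 for uvr8, co and hy5 against WT without UV-B, 1365, 1177 and 246 with UV-B, and 522, 148 and 2 for the UV-B effects against that in WT.

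Values near 0 changed sign. For UV-B in WT, ACS3 was -0.021 with DESeq2 and with its size factors, -0.013 with no filter and -0.019 on only the libraries compared. For UV-B in hy5, ICL1 was 0.42 and ACS3 0.24 with the replicate block, and ICL1 0.35 and ACS3 0.27 with number by light, and the UV-B effect in hy5 against that in WT was 0.007 and 0.11 for ACS3 in these fits.

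For replicate numbers, the groups without UV-B alone gave 4 of 4 calls for number 3 against 1 and 4 of 4 for number 3 against 2. The groups with UV-B alone gave 1 call for number 2 against 1, with ICL1 at 0.077 and ACS3 at 0.45, and 3 calls for number 3 against 1, with ICL1 at 0.70, MAS1 at 0.42, ACS3 at 0.85 and PCK1 at 0.78, and 5220 of all genes called. For UV-B in libraries numbered 1, 1 of 4 genes was called without the co libraries (2300 of all genes) 0 of 4 without the hy5 libraries (1912 of all genes), and 4 of 4 without the WT or the uvr8 libraries, and 2747 of all genes were called in libraries numbered 2 without hy5. The UV-B effect in libraries numbered 2 against 1 gave 1980 genes without uvr8, 1167 without co and 1440 without hy5, that in 3 against 1 gave 2553 without co and 2662 without hy5, and that in 3 against 2 gave 23 without uvr8 and 0 without WT, co or hy5.

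Leaving out 1 library at a time, the counts of all genes called were 1275 to 2227 for UV-B in WT, 0 to 27 in uvr8, 131 to 214 in co and 827 to 1398 in hy5. They were 379 to 883, 224 to 330 and 346 to 550 for uvr8, co and hy5 against WT without UV-B, 2114 to 3038, 1594 to 2624 and 527 to 1065 with UV-B, and 608 to 1116, 114 to 221 and 1 to 7 for the UV-B effects against that in WT. For UV-B in WT the log2 difference ranged over -0.28 to 0.93 for ICL1, -0.31 to 0.95 for MAS1, -0.34 to 0.59 for ACS3 and -0.15 to 1.01 for PCK1, and in hy5 over -0.45 to 1.08, -0.18 to 1.27, -0.36 to 0.90 and -0.27 to 1.13 for the same genes. Without UV-B it ranged over -1.59 to 0.20 for ICL1 and -1.56 to 0.051 for PCK1 in uvr8 against WT, over -0.43 to 1.48, -0.74 to 1.08, -0.27 to 1.26 and -0.61 to 1.19 for ICL1, MAS1, ACS3 and PCK1 in co, and over -0.12 to 1.82 for ICL1 and -0.52 to 1.40 for MAS1 in hy5. The UV-B effect against that in WT ranged over -0.30 to 1.58, -0.31 to 1.48, -0.11 to 1.39 and -0.30 to 1.47 in co, and over -0.96 to 0.94, -0.73 to 1.16, -0.60 to 0.90 and -0.88 to 0.85 in hy5.

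Single genes had 3196 counts or more in every library, and each group had 3 libraries. Each mutant is 1 strain. No group stayed in acetate, gene names of the lists could not be checked, and the meaning of the replicate numbers is not in the labels.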
